A study of Danio rerio with 8 samples.

Results

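The comparison set *cebp1*-/- eosinophils of zebrafish larvae against *cebp1*+/+ eosinophils, and was read over all genes that averaged 10 TPM or more in its 4 libraries. That limit kept 6977 of the 30838 genes listed, and these 6977 genes are called the members below. TPM is a transcript level corrected for gene length, scaled to the same sum in every library. The study made 8 libraries in all, 4 of them for a second mutation with its own wild type, which are not used here. Both genotypes carried *Tg(eslec:eGFP)* in the AB strain, and their larvae were 7 days old (7 dpf). The 2 *cebp1*-/- libraries came from fish homozygous for the *smu1* allele, the 2 *cebp1*+/+ libraries from fish without it. Whole larvae were dissociated, and about 500 eGFP-positive cells per library were sorted into lysis buffer, each time from another pool of individuals. The reporter is driven by the promoter of *eslec*, which the table lists as *si:dkeyp-75b4.10*, so the sort selected for cells in which that promoter was active. All p-values rest on the spread between these 2 pools per genotype, with the spread of each gene moderated by that of other genes. In pooled cells, a higher level in each cell cannot be told apart from a larger share of cells that express the gene.

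Eosinophils are granulocytes of the myeloid lineage that store cytotoxic and immunomodulatory proteins in granules, and they are known from parasite defence and allergy. Their formation in mammals depends on GATA factors and on members of the C/EBP family, basic leucine zipper proteins that bind one another and compete for the same DNA sites. *Cebp1* encodes a zebrafish C/EBP protein related to mammalian C/EBP epsilon, a factor of the late steps of granulocyte formation, and the comparison asked which genes differ in eosinophils that form without it.

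The depth of the libraries could be recovered from the values. The TPM of 6977 of 6977 members came out as whole reads divided by whole gene lengths, which gave 5725721 and 3930745 reads in the *cebp1*-/- libraries, against 1907131 and 2333077 in the *cebp1*+/+ libraries. Both *cebp1*-/- libraries were deeper than both *cebp1*+/+ libraries, and depth and genotype cannot be told apart. Across the members the log2 levels of the *cebp1*-/- pools correlated at 0.89 and those of the *cebp1*+/+ pools at 0.748, while pairs of unlike genotype correlated at 0.724 to 0.755 (Pearson, across genes). *Cebp1* itself is listed at 0 in all 4 libraries, the wild type included, so it could not serve to check the genotypes. *Eslec* took 2.07% and 2.41% of all TPM in *cebp1*-/-, against 1.18% and 1.46% in *cebp1*+/+. The neutrophil gene *lyz* had 0 and 1 reads in *cebp1*-/-, against 1 and 4 reads in *cebp1*+/+, and the macrophage gene *mpeg1.1* is listed at 0 throughout. *Coro1a*, which the study uses to mark myeloid cells, had no more than 4 reads in any library, so that a count near 0 is no sign that a cell type is missing.

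The most abundant transcript of both genotypes was *mt-rnr2*, the large ribosomal RNA of the mitochondrion, with 26.8% and 22.8% of TPM in *cebp1*-/-, against 20.5% and 22.4% in *cebp1*+/+. Next came eosinophil and cytoskeletal genes. *LOC101886910*, a protein-coding gene without a name, had 26583 and 28768 TPM in *cebp1*-/-, against 9576 and 14704 TPM in *cebp1*+/+. *Cst14b.2*, a cystatin gene, had 25605 and 25018 TPM in *cebp1*-/- eosinophils, against 10845 and 15574 TPM in *cebp1*+/+ eosinophils. Neither pair of groups overlapped, but with log2 differences of 1.22 (SE 0.19, limma adjusted p = 0.0573) and 0.96 (SE 0.17, adjusted p = 0.063) neither passed the test. *Rpl19*, a protein of the large ribosomal subunit, had 8989 and 10712 TPM in the *cebp1*-/- pools, compared with 10064 and 9885 TPM in the *cebp1*+/+ pools, with a log2 difference of -0.02.

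Few genes passed the test, and the lower ones outnumbered the higher ones. The test was limma on log2(TPM + 1), two-sided, over the 25527 genes that averaged 1 TPM or more, with p adjusted by Benjamini and Hochberg and a call at an adjusted p under 0.05. Fold changes on this scale understate the change of low genes. Of the members, 12 rose and 27 fell in *cebp1*-/- eosinophils, where the calls over all genes tested made up 0.0627% higher and 0.114% lower. Before adjustment, 378 higher and 1981 lower members had a p under 0.05. When TPM were scaled on the genes that averaged 50 TPM or more, 10 members rose and 27 fell, beside 0.0431% higher and 0.114% lower calls over all genes tested, and 37 members were called on both scales. This scaling moved log2 differences by only -0.08. A scaling on all genes of at least 1 TPM moves them by 1.07 instead, and under it 284 members rose and 18 fell, so the share of higher calls was 30.8% in TPM as deposited and 94% under that scaling. A negative difference that is smaller in size than about 1.07 thus changes its sign between these choices. With any 1 of the 4 libraries left out, 0 members were called by limma, and between 156 and 571 higher and 1096 and 1837 lower members then had an unadjusted p under 0.05.

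Large differences were also described without a test. A gene counts as beyond 2-fold where its log2 difference exceeds 1 in size and both *cebp1*-/- libraries lie on 1 side of both *cebp1*+/+ libraries, in TPM as deposited and after scaling on genes of at least 50 TPM. This held for 200 members higher (2.87%) and 2031 members lower (29.1%), against a background of 1.21% higher and 41.1% lower among all genes tested. A limma voom test on the recovered reads, chosen after the data were seen, called 351 members higher and 1007 lower, among them 156 of the 200 and 982 of the 2031. The reads come from the same libraries that selected these genes, so the overlap is no independent evidence.

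The balance of higher and lower genes followed the expression level. Of the 4037 members between 10 and 20 TPM, 49 were beyond 2-fold higher and 1530 lower, and their median log2 difference was -0.78. Between 20 and 50 TPM the counts were 72 and 374 of 1929 members, with a median of -0.34. Above that the counts in both directions came closer: 40 and 62 of the 509 members between 50 and 100 TPM (median -0.12), 29 and 56 of the 348 between 100 and 500 TPM (median 0.16), and 10 and 9 of the 154 members at 500 TPM or more (median 0.14).

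The reads behind these values moved with level as well. In members between 10 and 20 TPM the median gene had 78 and 55 reads in *cebp1*-/- (9.01 and 9.07 TPM), against 46 and 49 reads in *cebp1*+/+ (18.29 and 14.82 TPM). At 500 TPM or more it had 6574.5 and 5479.5 reads in *cebp1*-/-, against 1777.5 and 2367 in *cebp1*+/+, while the median TPM of the 4 libraries lay between 2111 and 2426. The read numbers of the genotypes thus differed by a smaller ratio in low genes than in high ones. Over all listed genes above and at 0 the median was 20 and 17 reads in *cebp1*-/-, against 18 and 19 reads in *cebp1*+/+. The 2031 members beyond 2-fold lower had a median of 48 and 38 reads in *cebp1*-/-, against 52 and 60 reads in *cebp1*+/+. The 4746 members in neither set had 166 and 113 reads in *cebp1*-/-, against 65 and 69 in *cebp1*+/+. What part the depth has in the lower values was not tested.

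**Figure D1:**
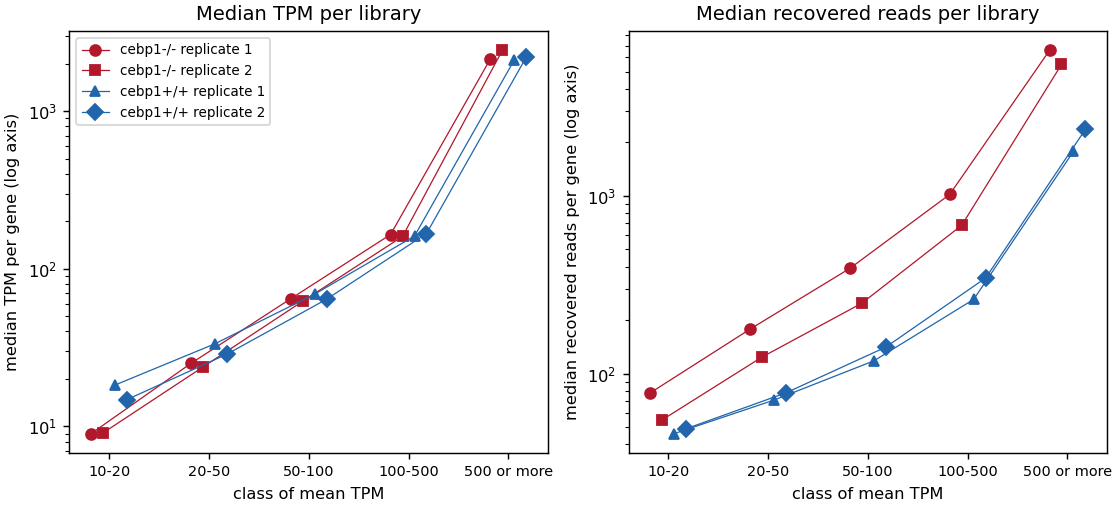
Median TPM (left) and median recovered reads (right) of the members in 5 classes of mean TPM, on log axes, 1 symbol per library with *cebp1*-/- in red and *cebp1*+/+ in blue. The TPM of the genotypes separate only in the lowest classes, whereas the reads separate most in the highest class.

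**Figure D2:**
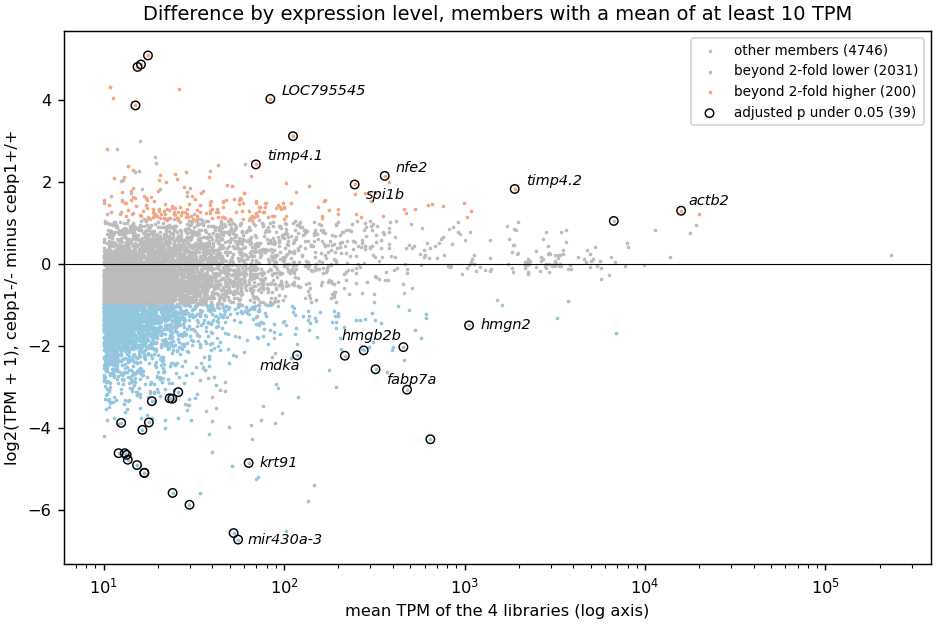
Log2 difference of TPM + 1, *cebp1*-/- minus *cebp1*+/+, against the mean TPM of the 4 libraries on a log axis, for the 6977 members. Red and blue points are the 200 members beyond 2-fold higher and the 2031 beyond 2-fold lower, circles are the 39 members with an adjusted p under 0.05, and the lower points crowd at the left, under 50 TPM.

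Gene length moved with the difference too. Among the 958 members of at least 50 TPM that are neither microRNA nor mitochondrially encoded genes, the median log2 difference was -0.11 for the 292 genes of up to 1000 bases and 0.57 for the 72 genes over 3000 bases, the length being the one that TPM and reads imply. Across these genes length and log2 difference had a Spearman rank correlation of 0.274, a description only, since the genes share libraries. Of the short ones 8 were beyond 2-fold higher and 35 lower, and of the long ones 13 and 5. The part of length in the differences was not tested.

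Transcription factors of the blood lineages were among the members that rose. *Spi1b* encodes Pu.1, an Ets factor that directs myeloid development, and had 406 and 376 TPM in *cebp1*-/-, against 92.7 and 110 TPM in *cebp1*+/+. Both *cebp1*-/- libraries stood far above both *cebp1*+/+ libraries, and the log2 difference was 1.94 (SE 0.24, limma adjusted p = 0.0408, and 1.86 after scaling on genes of at least 50 TPM). *Nfe2*, a basic leucine zipper factor known from erythroid cells and platelets of mammals, had 645 and 535 TPM in *cebp1*-/- eosinophils, against 141 and 123 TPM in *cebp1*+/+ eosinophils. It rose by log2 2.15 (SE 0.23, adjusted p = 0.0292), again without overlap, and it rested on 6967 and 4161 reads in *cebp1*-/-, against 459 and 519 in *cebp1*+/+.

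Other regulators were higher without overlap between the genotypes but missed the threshold. *Cebpa*, the C/EBP gene of early granulocyte progenitors in mammals, had 483 and 383 TPM in the *cebp1*-/- pools, compared with 118 and 140 TPM in the *cebp1*+/+ pools, a log2 difference of 1.74 (SE 0.25, adjusted p = 0.0506). *Hlx1*, a homeobox gene, stood at 48.3 and 40.6 TPM in *cebp1*-/-, against 11.6 and 11 TPM in *cebp1*+/+. *Gfi1ab*, which encodes a zinc finger repressor of blood cells, stood at 97 and 75.4 TPM in *cebp1*-/- eosinophils, against 31.4 and 23.3 TPM in *cebp1*+/+ eosinophils. Both missed the threshold, with log2 differences of 1.88 and 1.62 (adjusted p = 0.0696 and 0.0743). *Gata2a*, the GATA factor gene of the eosinophil lineage, had 286 and 301 TPM in the *cebp1*-/- pools, compared with 185 and 148 TPM in the *cebp1*+/+ pools. Its groups did not overlap, and its log2 difference was 0.82 (SE 0.24, adjusted p = 0.0927). *Cebpb*, a C/EBP gene known from emergency granulopoiesis, had 743 and 715 TPM in *cebp1*-/-, against 531 and 495 TPM in *cebp1*+/+, and a log2 difference of 0.51 (SE 0.19, adjusted p = 0.125), or 0.43 after scaling on genes of at least 50 TPM. Under the scaling on genes of at least 1 TPM it was 1.58, where the median over all members was 0.46. The study, which tested read counts with DESeq2, reports *cebpb* as upregulated here and, by RT-qPCR, in adult eosinophils.

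Not all factor genes lay on the higher side. *Cebpd*, a C/EBP gene induced by inflammation in mammals, had 15.7 and 20.7 TPM in *cebp1*-/- eosinophils, against 58.3 and 75.1 TPM in *cebp1*+/+ eosinophils, with 76 and 72 reads in *cebp1*-/-, against 85 and 141 in *cebp1*+/+, and a log2 difference of -1.82 (adjusted p = 0.0696). *Klf4*, a Krüppel-like factor gene, had 2.15 and 4.61 TPM in the *cebp1*-/- pools, compared with 18.8 and 18.6 TPM in the *cebp1*+/+ pools, and a log2 difference of -2.23 (adjusted p = 0.0765). Of the 22 blood lineage factor genes among the members, 2 rose and none fell. Beyond 2-fold, 5 were higher (*spi1b*, *nfe2*, *hlx1*, *gfi1ab* and *etv6*) and 5 lower (*klf4*, *mitfa*, *runx3*, *meis1b* and *klf6a*). That is 22.7% in each direction, against 2.87% higher and 29.1% lower of all members. Members between 20 and 50 TPM, where the median gene of the list lies (37.6 TPM), had 3.73% and 19.4%. The median log2 difference of the list was 0.18 as deposited and 1.19 under the scaling on genes of at least 1 TPM, against -0.54 and 0.46 over all members. *Mitfa* is known foremost as the regulator of pigment cells, whose markers are given further on. Of the 5 C/EBP genes among the members none was called, *cebpa* was beyond 2-fold higher and *cebpd* lower.

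Genes of the eosinophil lineage were mostly on the higher side, and the inhibitors of metalloproteinases led them. *Timp4.2* had 2506 and 3429 TPM in *cebp1*-/-, against 752 and 896 TPM in *cebp1*+/+, and rose by log2 1.83 (SE 0.20, limma adjusted p = 0.0292). *Timp4.1* had 126 and 110 TPM in *cebp1*-/- eosinophils, against 24.2 and 18.3 TPM in *cebp1*+/+ eosinophils, and rose by log2 2.43 (SE 0.32, adjusted p = 0.0456), but after scaling on genes of at least 50 TPM its adjusted p was 0.0514. Both encode secreted proteins that block matrix metalloproteinases, and a related gene of the list, *timp4.3*, had a log2 difference of 0.00. *Cxcr4b*, the receptor for the chemokine Cxcl12, had 702 and 512 TPM in the *cebp1*-/- pools, compared with 195 and 115 TPM in the *cebp1*+/+ pools. All 4 libraries were ordered by genotype, with a log2 difference of 2.0 (SE 0.31, adjusted p = 0.0573).

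The remaining markers of the lineage differed less. *Eslec*, the sorting gene, had 20720 and 24085 TPM in *cebp1*-/-, against 11840 and 14617 TPM in *cebp1*+/+ (log2 difference 0.76, SE 0.14, adjusted p = 0.0685). *Itln1*, an intelectin that binds microbial sugars, had 2630 and 2214 TPM in *cebp1*-/- eosinophils, against 1340 and 1323 TPM in *cebp1*+/+ eosinophils (log2 difference 0.86, adjusted p = 0.07), and *agr2*, a disulfide isomerase of secretory cells, had 1374 and 1314 TPM in the *cebp1*-/- pools, compared with 835 and 738 TPM in the *cebp1*+/+ pools (log2 difference 0.77, adjusted p = 0.0796). *Ccr9a*, a chemokine receptor gene, overlapped between genotypes at 98.1 and 116 TPM in *cebp1*-/-, against 98.2 and 117 TPM in *cebp1*+/+, and so did *il1rl1*, the receptor gene for interleukin 33 in mammals, at 50.1 and 35.8 TPM in *cebp1*-/- eosinophils, against 35.9 and 36.3 TPM in *cebp1*+/+ eosinophils. Over the 19 lineage genes among the members, 2 rose, 4 were beyond 2-fold higher (*timp4.1*, *timp4.2*, *cxcr4b* and *pdia2*) and 2 beyond 2-fold lower. These shares of 21.1% and 10.5% stand beside 2.87% and 29.1% of all members. The median log2 difference was 0.76 as deposited, against -0.54 over all members. Between 100 and 500 TPM, where the median gene of the list lies (107 TPM), the members had a median of 0.16, with 8.33% higher and 16.1% lower. The 2 lower ones, *itln3* with 2.37 and 4.18 TPM in the *cebp1*-/- pools, compared with 9.99 and 27.7 TPM in the *cebp1*+/+ pools, and *ptgdsb.2*, a prostaglandin D synthase gene, with 13.6 and 7.33 TPM in *cebp1*-/-, against 32.3 and 21.4 TPM in *cebp1*+/+, were expressed at low levels. Several genes of this list were put there because the study reported them in these cells, so its direction is no independent evidence.

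Among the members that rose and have no known role, *LOC795545* had the largest log2 difference, with 110 and 209 TPM in *cebp1*-/- eosinophils, against 7.74 and 9.01 TPM in *cebp1*+/+ eosinophils, and 751 and 1031 reads in *cebp1*-/-, against 16 and 24 in *cebp1*+/+. It rose by log2 4.03 (SE 0.40, limma adjusted p = 0.0259). *Si:ch1073-429i10.1*, a protein-coding gene, had 207 and 194 TPM in the *cebp1*-/- pools, compared with 17.7 and 27.6 TPM in the *cebp1*+/+ pools, and rose by log2 3.12 (SE 0.32, adjusted p = 0.0292). *LOC103911970* had 35.3 and 22.7 TPM in *cebp1*-/-, against 1.66 and 0.515 TPM in *cebp1*+/+, with no more than 5 reads in a *cebp1*+/+ library (log2 3.87, adjusted p = 0.0462, and 0.0514 after scaling on genes of at least 50 TPM). *Si:zfos-2330d3.8*, second to *actb2* in level among the members that rose, had 9040 and 9063 TPM in *cebp1*-/- eosinophils, against 4347 and 4389 TPM in *cebp1*+/+ eosinophils (log2 1.05, SE 0.12, adjusted p = 0.0408).

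Genes of the actin cytoskeleton lay on both sides. *Actb2*, cytoplasmic beta-actin, had 24900 and 20211 TPM in the *cebp1*-/- pools, compared with 8425 and 9854 TPM in the *cebp1*+/+ pools, and rose by log2 1.30 (SE 0.14, limma adjusted p = 0.0292), so that it held 2.49% and 2.02% of TPM in *cebp1*-/-, against 0.843% and 0.985% in *cebp1*+/+. *Pfn1*, profilin, which delivers actin monomers, had 4559 and 4782 TPM in *cebp1*-/-, against 2518 and 2765 TPM in *cebp1*+/+ (log2 difference 0.82, adjusted p = 0.0623). Of the 48 actin cytoskeleton genes among the members, *actb2* rose and *cfl1l* fell, 5 were beyond 2-fold higher (10.4%) and 6 lower (12.5%). The shares were 2.87% and 29.1% over all members, and 7.86% and 12.2% between 50 and 100 TPM, where the median gene of the list lies (52.9 TPM). The median log2 difference of the list was 0.15 as deposited. The higher ones also held *arpc2* and *arpc1b*, subunits of the Arp2/3 complex, *lcp2a*, an adaptor of leukocyte receptors, and *rac1b*. The lower ones held *rac1a*, with 18.6 and 17.2 TPM in *cebp1*-/- eosinophils, against 68.6 and 71.3 TPM in *cebp1*+/+ eosinophils, and *cfl1*, cofilin. *Fermt3b*, which encodes the kindlin of blood cells that activates integrins, had 80.7 and 72.7 TPM in the *cebp1*-/- pools, compared with 30.3 and 32.3 TPM in the *cebp1*+/+ pools, and *cd44b*, a hyaluronan receptor gene, 54.2 and 63.2 TPM in *cebp1*-/-, against 18.6 and 20.4 TPM in *cebp1*+/+ (log2 differences 1.26 and 1.54, adjusted p = 0.0796 and 0.0764). *Itga5* and *cd82a*, of the same adhesion receptor list, were lower without overlap (log2 differences -1.56 and -1.35, adjusted p = 0.0876 and 0.108). Of the 13 members of that list 2 were beyond 2-fold higher (15.4%) and 3 lower (23.1%). Members between 20 and 50 TPM, where its median gene lies (35.4 TPM), had 3.73% and 19.4%.

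Several adaptors and receptors of leukocyte signalling also stood beyond 2-fold higher at a mean of at least 50 TPM. They were picked after their values were seen and none passed the test. *Grap2b*, an adaptor related to mammalian Gads, had 498 and 476 TPM in *cebp1*-/- eosinophils, against 169 and 126 TPM in *cebp1*+/+ eosinophils (log2 difference 1.73, adjusted p = 0.0506), and *osmr*, an oncostatin M receptor gene, had 451 and 308 TPM in the *cebp1*-/- pools, compared with 108 and 121 TPM in the *cebp1*+/+ pools (log2 difference 1.70, adjusted p = 0.0579). *Parvg*, parvin of blood cells, had 508 and 393 TPM in *cebp1*-/-, against 151 and 157 TPM in *cebp1*+/+. *Unc13d*, which primes granules for release in mammalian lymphocytes, had 142 and 95.6 TPM in *cebp1*-/- eosinophils, against 43 and 38.7 TPM in *cebp1*+/+ eosinophils, and the mean of *cst14b.1*, a cystatin gene, was 976 TPM in *cebp1*-/- and 351 TPM in *cebp1*+/+. The list of chemokine and cytokine receptors mostly went the other way. Of its 17 members 2 were beyond 2-fold higher (11.8%) and 8 lower (47.1%), with a median of -0.63. Members between 10 and 20 TPM, where its median gene lies (15.8 TPM), had 1.21% and 37.9%. *Tgfbr2b*, *kita* and *il13* of that list were lower, with log2 differences of -2.58, -2.01 and -1.74, and none was called. In all, 79 of the 1011 members of at least 50 TPM (7.81%) were beyond 2-fold higher and 127 (12.6%) lower. The voom test on reads called 78 of the 79 and 90 of the 127. These genes were selected for their difference in the same libraries, so their direction was given beforehand and the calls are no independent evidence.

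**Figure D3:**
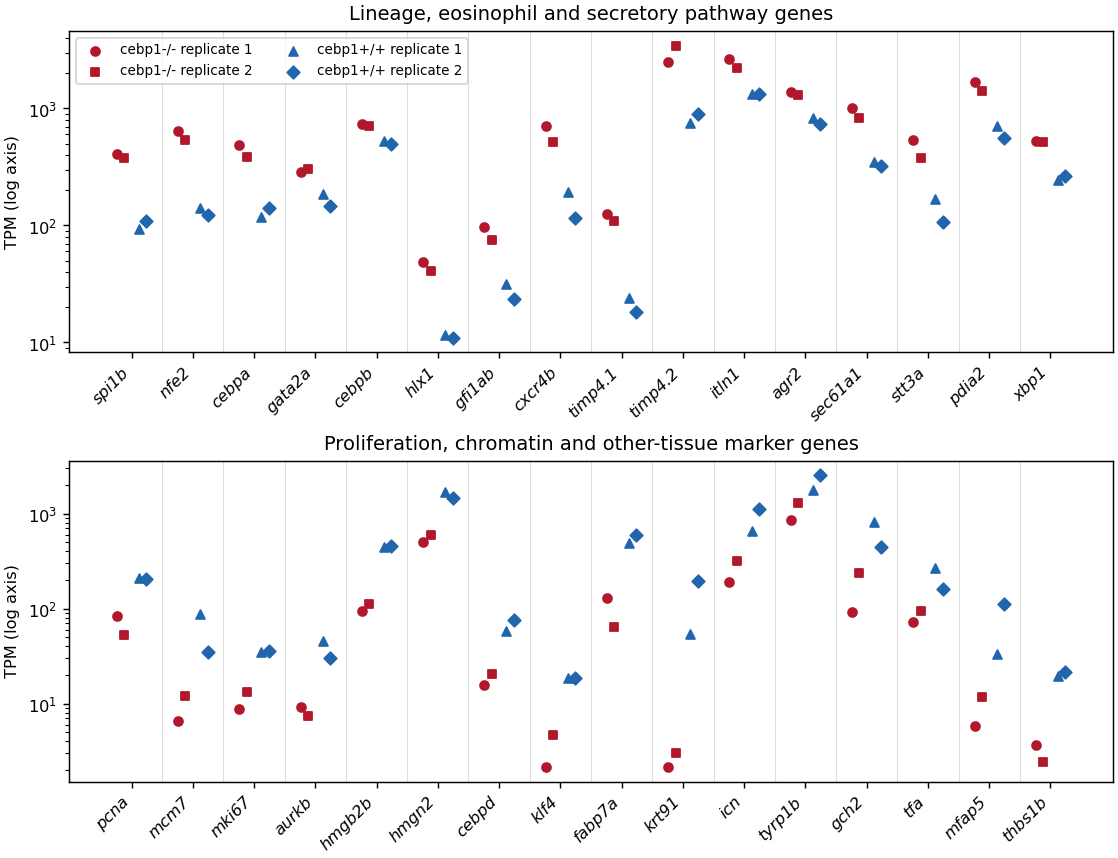
TPM of 32 named genes in each library on log axes, with the 2 *cebp1*-/- libraries in red to the left of the 2 *cebp1*+/+ libraries in blue. The upper plot holds genes whose red points all stand above the blue ones and the lower plot genes for which they all stand under them, although most of these genes did not pass the test over all genes.

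No gene of the secretory pathway lists was called, and the members named here lay on either side. *Sec61a1*, the pore of protein translocation into the endoplasmic reticulum, had 1006 and 823 TPM in *cebp1*-/-, against 352 and 324 TPM in *cebp1*+/+ (log2 difference 1.43, SE 0.21, limma adjusted p = 0.0526). *Stt3a*, a catalytic subunit of the oligosaccharyltransferase that glycosylates proteins as they enter, had 533 and 380 TPM in *cebp1*-/- eosinophils, against 169 and 107 TPM in *cebp1*+/+ eosinophils (log2 difference 1.74, adjusted p = 0.0623). Its counterpart *stt3b* was beyond 2-fold lower, with a log2 difference of -1.31. *Pdia2* and *pdia3*, disulfide isomerases, had log2 differences of 1.30 and 1.24 (adjusted p = 0.0573 and 0.0688), and *pdia2* stood at 1682 and 1410 TPM in the *cebp1*-/- pools, compared with 705 and 555 TPM in the *cebp1*+/+ pools.

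Of the 70 members of the list for translocation and folding none was called, 6 were beyond 2-fold higher (8.57%) and 4 lower (5.71%), against 2.87% and 29.1% of all members. The median log2 difference was 0.22 as deposited and 1.24 under the scaling on genes of at least 1 TPM. The 47 coat and transport genes between the endoplasmic reticulum and the Golgi had 0 beyond 2-fold higher and 1 lower (median 0.17). The lower one was *ergic1*, the gene of the smallest p in that list, with 3.91 and 4.36 TPM in *cebp1*-/-, against 23.1 and 9.15 TPM in *cebp1*+/+ (log2 difference -1.61, adjusted p = 0.106). *Xbp1*, a factor of the unfolded protein response that is required for mammalian eosinophils, had 525 and 518 TPM in *cebp1*-/-, against 243 and 266 TPM in *cebp1*+/+ (log2 difference 1.03, SE 0.21, adjusted p = 0.0739). *Creb3l1*, a membrane-bound factor of the same response, had 37.4 and 25.4 TPM in *cebp1*-/- eosinophils, against 11.6 and 5.89 TPM in *cebp1*+/+ eosinophils, and *ern1*, the sensor kinase that splices *xbp1*, had 29.7 and 29.3 TPM in the *cebp1*-/- pools, compared with 12.1 and 12 TPM in the *cebp1*+/+ pools (log2 differences 1.77 and 1.22, adjusted p = 0.0836 and 0.0948). In metabolism, *tdh*, threonine dehydrogenase, had 1248 and 946 TPM in *cebp1*-/-, against 358 and 467 TPM in *cebp1*+/+, and *pycr1b*, an enzyme of proline synthesis, had 26.5 and 23.1 TPM in *cebp1*-/- eosinophils, against 5.4 and 3.29 TPM in *cebp1*+/+ eosinophils (log2 differences 1.41 and 2.30, adjusted p = 0.062 and 0.0696). *Glula* and *cad*, of the same list of amino acid and one-carbon enzymes, were lower without overlap (log2 differences -0.92 and -1.60, adjusted p = 0.0796 and 0.0904). Of the 17 members of that list 2 were beyond 2-fold higher (11.8%) and 4 lower (23.5%), with a median of -0.21. Members between 20 and 50 TPM, where its median gene lies (20.4 TPM), had 3.73% and 19.4%. *Gsr*, glutathione reductase, had 97.1 and 88.7 TPM in the *cebp1*-/- pools, compared with 27.5 and 27.1 TPM in the *cebp1*+/+ pools (log2 difference 1.73, adjusted p = 0.0631), and of the 30 redox enzyme genes among the members 11 were beyond 2-fold lower (36.7%) and only *gsr* higher (3.33%), against 29.1% and 2.87% of all members. Between 50 and 100 TPM, where the median redox gene lies (57.4 TPM), 12.2% of the members were lower and 7.86% higher.

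Among the messenger RNAs that fell were 2 of chromatin proteins. *Hmgb2b*, a high mobility group protein that bends DNA and is abundant in dividing cells, had 94 and 113 TPM in *cebp1*-/-, against 443 and 453 TPM in *cebp1*+/+, and fell by 2.11 on the log2 scale (SE 0.24, limma adjusted p = 0.0292). *Hmgn2*, a nucleosome-binding protein, had 508 and 597 TPM in *cebp1*-/- eosinophils, against 1682 and 1449 TPM in *cebp1*+/+ eosinophils, and fell by 1.5 on that scale (SE 0.19, adjusted p = 0.0421). *Hmgn2* rested on 1047 and 886 reads in *cebp1*-/-, against 1045 and 1161 in *cebp1*+/+, close to equal between libraries of unlike depth. Under the scaling on genes of at least 1 TPM, the log2 differences were -1.05 for *hmgb2b* and -0.43 for *hmgn2*. *Hmgb1b* and *hmgb2a*, related genes, had log2 differences of -1.57 and -1.03 (adjusted p = 0.0621 and 0.0725). Of the 33 genes of chromatin architecture among the members 2 fell, 10 were beyond 2-fold lower and 0 higher, a lower share of 30.3% against 29.1% over all members and 12.2% over the members between 50 and 100 TPM, where the median member of the list lies (73.9 TPM). The median log2 difference was -0.70 as deposited but 0.37 under the scaling on genes of at least 1 TPM.

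Genes of cell division were lower in a larger share of their members. *Pcna*, the sliding clamp of the replication fork, had 83.7 and 53 TPM in the *cebp1*-/- pools, compared with 209 and 203 TPM in the *cebp1*+/+ pools, and 489 and 223 reads in *cebp1*-/-, against 369 and 462 in *cebp1*+/+ (log2 difference -1.62, SE 0.30, adjusted p = 0.0688). *Mcm7*, a subunit of the replicative helicase, had 6.54 and 11.9 TPM in *cebp1*-/-, against 88.3 and 34.9 TPM in *cebp1*+/+, and *mcm2*, another, had 7.87 and 8.83 TPM in *cebp1*-/- eosinophils, against 33.8 and 17.9 TPM in *cebp1*+/+ eosinophils (log2 differences -2.52 and -1.46, adjusted p = 0.0744 and 0.097). Of the 38 DNA replication genes among the members none was called, 26 were beyond 2-fold lower and 0 higher, and the median was -1.36 as deposited and -0.38 under the scaling on genes of at least 1 TPM. *Mki67*, the proliferation marker, had 8.82 and 13.1 TPM in the *cebp1*-/- pools, compared with 35.2 and 35.5 TPM in the *cebp1*+/+ pools, and *aurkb*, a kinase of chromosome segregation, had 9.11 and 7.35 TPM in *cebp1*-/-, against 45.6 and 30.5 TPM in *cebp1*+/+ (log2 differences -1.63 and -2.06, adjusted p = 0.0796 and 0.07). Of the 36 mitosis genes none was called, 23 were beyond 2-fold lower and 0 higher (median -1.17 and -0.16 on these scales). The shares of 26 of 38 and 23 of 36 stand beside 29.1% of all members and, at the level of most of these genes, 1530 of 4037 members between 10 and 20 TPM. The data hold 60 genes of the DNA replication list and 69 of the mitosis list. A gene under 10 TPM in both *cebp1*-/- libraries, such as *mcm2* or *aurkb*, is a member only through its level in *cebp1*+/+. The counts of lower members are thus partly set by the limit of 10 TPM.

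Some of the genes that fell are best known from neural and other embryonic progenitors. *Fabp7a*, a fatty acid carrier of radial glia, had 129 and 63.3 TPM in *cebp1*-/- eosinophils, against 497 and 595 TPM in *cebp1*+/+ eosinophils, and fell by 2.57 on the log2 scale (SE 0.35, limma adjusted p = 0.0462). *Mdka*, the growth factor midkine, had 35.1 and 46.8 TPM in the *cebp1*-/- pools, compared with 211 and 177 TPM in the *cebp1*+/+ pools, and fell by 2.23 (SE 0.29, adjusted p = 0.0456), and *her15.1*, a Notch target gene, had 4.93 and 4.04 TPM in *cebp1*-/-, against 54.9 and 39.7 TPM in *cebp1*+/+, and fell by 3.13 (adjusted p = 0.0421), both picked after their values were seen. Of the 19 neural marker genes among the members *fabp7a* alone fell, 3 were beyond 2-fold lower (15.8%) and 1, *atp1a3a*, higher (5.26%). Over all members 29.1% were lower and 2.87% higher, so the list as a whole was not lower in a larger share. The median of this list was -0.51 as deposited and 0.53 under the scaling on genes of at least 1 TPM, against -0.54 and 0.46 over all members. Its summed level was 659 and 529 TPM in *cebp1*-/-, against 1191 and 1193 TPM in *cebp1*+/+.

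Markers of epidermis and pigment cells differed between genotypes and also between pools of 1 genotype. *Krt91*, a keratin gene, had 2.16 and 3 TPM in *cebp1*-/- eosinophils, against 53.5 and 196 TPM in *cebp1*+/+ eosinophils, and fell by 4.86 on the log2 scale (SE 0.60, limma adjusted p = 0.0408). *Anxa1c*, an annexin gene, had 3.62 and 3.35 TPM in the *cebp1*-/- pools, compared with 32.6 and 56.3 TPM in the *cebp1*+/+ pools, and fell by 3.29 (adjusted p = 0.0462), and *cfl1l*, a cofilin-like gene, had 1.98 and 0.305 TPM in *cebp1*-/-, against 32.1 and 31.1 TPM in *cebp1*+/+, and fell by 4.05 (adjusted p = 0.0462). All 13 keratinocyte marker genes among the members were beyond 2-fold lower, against 29.1% of all members, and 2 of them were called. Their medians were -3.29 as deposited and -2.34 under the scaling on genes of at least 1 TPM. Their list summed to 522 and 715 TPM in *cebp1*-/-, against 1682 and 3986 TPM in *cebp1*+/+, and its defining marker *krt4* to 1.62 and 1.05 TPM in *cebp1*-/- eosinophils, against 22.6 and 133 TPM in *cebp1*+/+ eosinophils. Only 13 of the 37 genes of the list that the data hold were members. A gene near 0 in *cebp1*-/-, such as *krt4* or *krt91*, is a member only through its level in *cebp1*+/+. The count of lower members is thus partly set by the limit of 10 TPM.

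*Tyrp1b*, an enzyme of melanin synthesis, had 860 and 1305 TPM in the *cebp1*-/- pools, compared with 1777 and 2547 TPM in the *cebp1*+/+ pools, and *gch2*, an enzyme of pteridine pigments, had 92.3 and 236 TPM in *cebp1*-/-, against 818 and 451 TPM in *cebp1*+/+ (log2 differences -1.01 and -2.03, adjusted p = 0.0825 and 0.0781). Of 23 pigment cell genes among the members none was called and 21 were beyond 2-fold lower (91.3%, against 29.1% of all members, median -1.38 as deposited and -0.31 under the scaling on genes of at least 1 TPM). They summed to 2245 and 3494 TPM in *cebp1*-/-, against 5660 and 6880 TPM in *cebp1*+/+. Liver markers summed to 185 and 255 TPM in *cebp1*-/-, against 1058 and 686 TPM in *cebp1*+/+, with 8 of 13 members beyond 2-fold lower (61.5%). The genes of cartilage, fin and fibroblasts summed to 88 and 116 TPM in *cebp1*-/-, against 452 and 431 TPM in *cebp1*+/+, with 6 of 6 lower. In these lists too, a gene near 0 in *cebp1*-/- is a member only through its level in *cebp1*+/+.

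Further lists with few members were lower in sum as well, and most of their genes were not members. Over all genes tested the median log2 difference was -0.9, and 41.1% were beyond 2-fold lower. Exocrine pancreas markers summed to 89.5 and 88.7 TPM in *cebp1*-/-, against 253 and 202 TPM in *cebp1*+/+ (4 members). Kidney and ionocyte markers summed to 248 and 231 TPM in *cebp1*-/-, against 539 and 496 TPM in *cebp1*+/+ (5 members). Vascular markers summed to 65 and 68.7 TPM in *cebp1*-/-, against 166 and 142 TPM in *cebp1*+/+ (1 member), and thrombocyte markers summed to 36.7 and 40.8 TPM in *cebp1*-/-, against 94.5 and 64.8 TPM in *cebp1*+/+ (3 members). The summed reads of the pancreas, kidney, vascular and thrombocyte lists overlapped between genotypes. Vascular markers had 1077 and 800 reads in *cebp1*-/-, against 848 and 997 in *cebp1*+/+. Thrombocyte markers had 659 and 512 reads in *cebp1*-/-, against 577 and 485 in *cebp1*+/+. Whether these sums were lower than those of other genes of like level was not tested. Muscle markers summed to 1510 and 305 TPM in *cebp1*-/-, against 397 and 479 TPM in *cebp1*+/+, and of these *actc1b* alone had 507 and 4.7 TPM in *cebp1*-/- eosinophils, against 9.24 and 66.6 TPM in *cebp1*+/+ eosinophils. Intestinal markers summed to 1681 and 1713 TPM in *cebp1*-/-, against 1247 and 1068 TPM in *cebp1*+/+, and among them *agr2* is also a gene of the eosinophils and *muc2.1*, a mucin gene, had 203 and 251 TPM in the *cebp1*-/- pools, compared with 170 and 113 TPM in the *cebp1*+/+ pools. Of the blood cell lists, neutrophil markers summed to 388 and 363 TPM in *cebp1*-/-, against 555 and 707 TPM in *cebp1*+/+, and macrophage markers to 84.4 and 92.6 TPM in *cebp1*-/-, against 163 and 123 TPM in *cebp1*+/+. The neutrophil sum includes *s100a10b*, also on the keratinocyte list, and *mpx*, the neutrophil myeloperoxidase, stood at 1.99 and 5 TPM in *cebp1*-/-, against 19.1 and 12.4 TPM in *cebp1*+/+. Of the 6 neutrophil genes among the members, 3 were higher and 3 lower without overlap. The higher ones included *alox5ap* and *srgn*, the latter with 94.9 and 81.6 TPM in *cebp1*-/-, against 68.5 and 67.9 TPM in *cebp1*+/+. Of the 3 macrophage genes among the members, 1 was higher without overlap, *csf1rb*, and 1 lower. Both counts stand beside 912 higher and 3485 lower without overlap among all 6977 members. The part of cells other than eosinophils in the lower values was not tested.

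**Figure D4:**
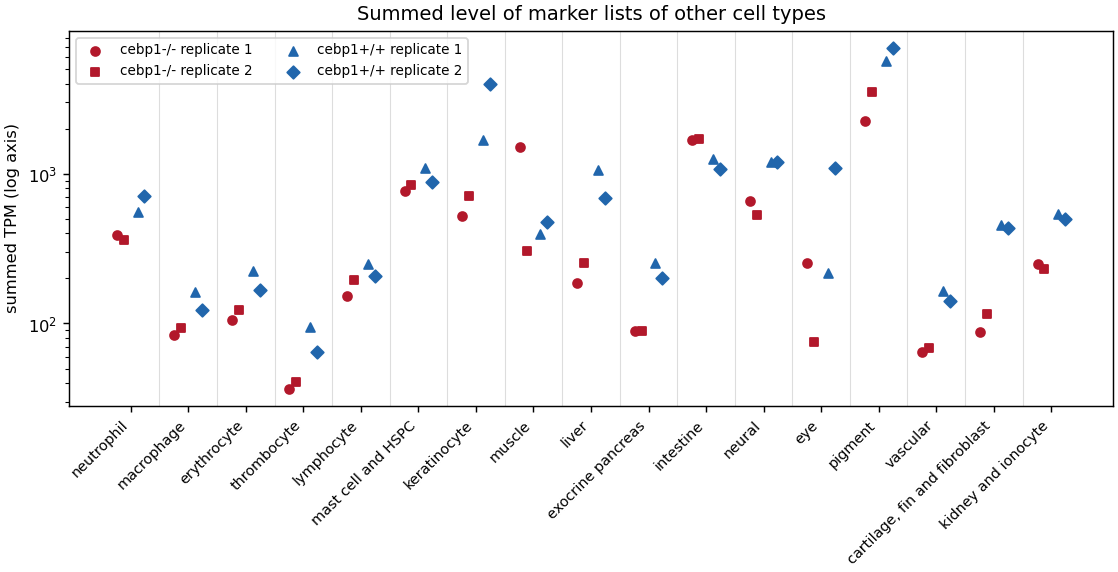
Summed TPM of 17 lists of marker genes of other cell types per library on a log axis, with *cebp1*-/- in red to the left of *cebp1*+/+ in blue. The keratinocyte, liver, pigment and connective tissue sums are lower in both *cebp1*-/- libraries, whereas muscle and eye vary mainly between single libraries.

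MicroRNA genes made up 3 of the 12 members that rose and 11 of the 27 that fell, on very few reads. On a gene of 22 bases 1 read was worth 11.4 and 15.8 TPM in *cebp1*-/-, against 37.8 and 29.3 TPM in *cebp1*+/+. Of the 155 microRNA genes among the members, 144 had at most 10 reads in every library. *Mir16b*, which rose, had 2 and 3 reads in *cebp1*-/-, against 0 and 0 in *cebp1*+/+, and *mir430a-3*, which fell, had 0 and 0 reads in *cebp1*-/-, against 2 and 5 in *cebp1*+/+. With so few reads no fold is given for them. *Mir430a-13*, a copy of the *mir430* family that clears maternal messages in the early embryo, had more, 4 and 5 reads in *cebp1*-/-, against 41 and 31 in *cebp1*+/+, and 45.6 and 79.2 TPM in *cebp1*-/- eosinophils, against 1550 and 909 TPM in *cebp1*+/+ eosinophils (log2 -4.28, limma adjusted p = 0.0147), but reads of near-identical copies cannot be assigned with certainty. The deepest was *mir223*, a microRNA of myeloid cells, with 297 and 142 reads in *cebp1*-/-, against 28 and 31 in *cebp1*+/+, and 1775 and 1178 TPM in the *cebp1*-/- pools, compared with 555 and 476 TPM in the *cebp1*+/+ pools (log2 difference 1.49, adjusted p = 0.0579). The protocol amplified complementary DNA and was not made for mature microRNAs.

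Of the RNAs of the mitochondrion, 2 transfer RNAs passed the test. Of 23 mitochondrially encoded genes among the members 2 fell, 14 were beyond 2-fold lower (60.9%, against 29.1% of all members) and 0 higher, with medians of -1.80 as deposited and -0.75 under the scaling on genes of at least 1 TPM. The 2 that fell are transfer RNA genes, *trnH* with 78.9 and 69.7 TPM in *cebp1*-/-, against 297 and 424 TPM in *cebp1*+/+, and *trnE* with 193 and 162 TPM in *cebp1*-/- eosinophils, against 591 and 888 TPM in *cebp1*+/+ eosinophils (log2 differences -2.24 and -2.03, limma adjusted p = 0.0408 and 0.0421). Both rested on few reads. *TrnH* had 22 and 14 reads in *cebp1*-/-, against 25 and 46 in *cebp1*+/+. *TrnE* had 53 and 32 reads in *cebp1*-/-, against 49 and 95 in *cebp1*+/+. *TrnS1*, the most abundant transfer RNA gene of the list, had 17386 and 12022 TPM in *cebp1*-/-, against 13042 and 12867 TPM in *cebp1*+/+, overlapping between genotypes (log2 difference 0.16, adjusted p = 0.512). *Mt-rnr1*, the small ribosomal RNA of the mitochondrion, had 1371 and 2347 TPM in the *cebp1*-/- pools, compared with 3711 and 5515 TPM in the *cebp1*+/+ pools, whereas *mt-rnr2* had 268376 and 228166 TPM in *cebp1*-/-, against 204944 and 223579 TPM in *cebp1*+/+ (log2 differences -1.33 and 0.21, adjusted p = 0.0747 and 0.173). A further gene, *zgc:158463*, annotated as a ribosomal RNA in RefSeq, had 2372 and 4127 TPM in *cebp1*-/- eosinophils, against 7267 and 13749 TPM in *cebp1*+/+ eosinophils (log2 difference -1.68, adjusted p = 0.0713). *LOC110438756* was listed at 0 in both *cebp1*-/- libraries and had 34 and 27 reads in the *cebp1*+/+ libraries. Its log2 difference was -4.78 as deposited (limma adjusted p = 0.0292) and -4.24 under the scaling on genes of at least 1 TPM. With values of 0 on 1 side, that size rests on the 1 added to TPM.

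No gene was called in 5 large housekeeping lists, of which the ribosomal proteins had the median nearest to 0. The 76 cytosolic ribosomal protein genes had a median log2 difference of 0.01, with 0 beyond 2-fold higher and 1 lower, and their list held 20.1% and 23.9% of TPM in *cebp1*-/-, against 20.9% and 20.7% in *cebp1*+/+. The 61 translation factor genes had a median of 0.20, with 0 and 4 beyond 2-fold. *Eef1a1l1*, elongation factor 1 alpha, had the smallest p of the list with 16036 and 13292 TPM in the *cebp1*-/- pools, compared with 8920 and 7429 TPM in the *cebp1*+/+ pools (log2 difference 0.84, adjusted p = 0.064 by limma). *Eef2b*, elongation factor 2, had 2857 and 2413 TPM in *cebp1*-/-, against 1570 and 1067 TPM in *cebp1*+/+ (log2 difference 1.02, adjusted p = 0.0749). The 76 nuclear genes of oxidative phosphorylation had 0 and 4 beyond 2-fold and a median of -0.41, the 38 proteasome genes 0 and 4 and -0.28, and the 91 splicing factor genes 1 and 21 (23.1% lower, against 29.1% of all members) and -0.62, against -0.54 over all members. These 3 negative medians were positive, at 0.64, 0.75 and 0.39, under the scaling on genes of at least 1 TPM. The median splicing factor gene lies at 26.7 TPM, and of all members between 20 and 50 TPM 19.4% were beyond 2-fold lower.

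**Figure D5:**
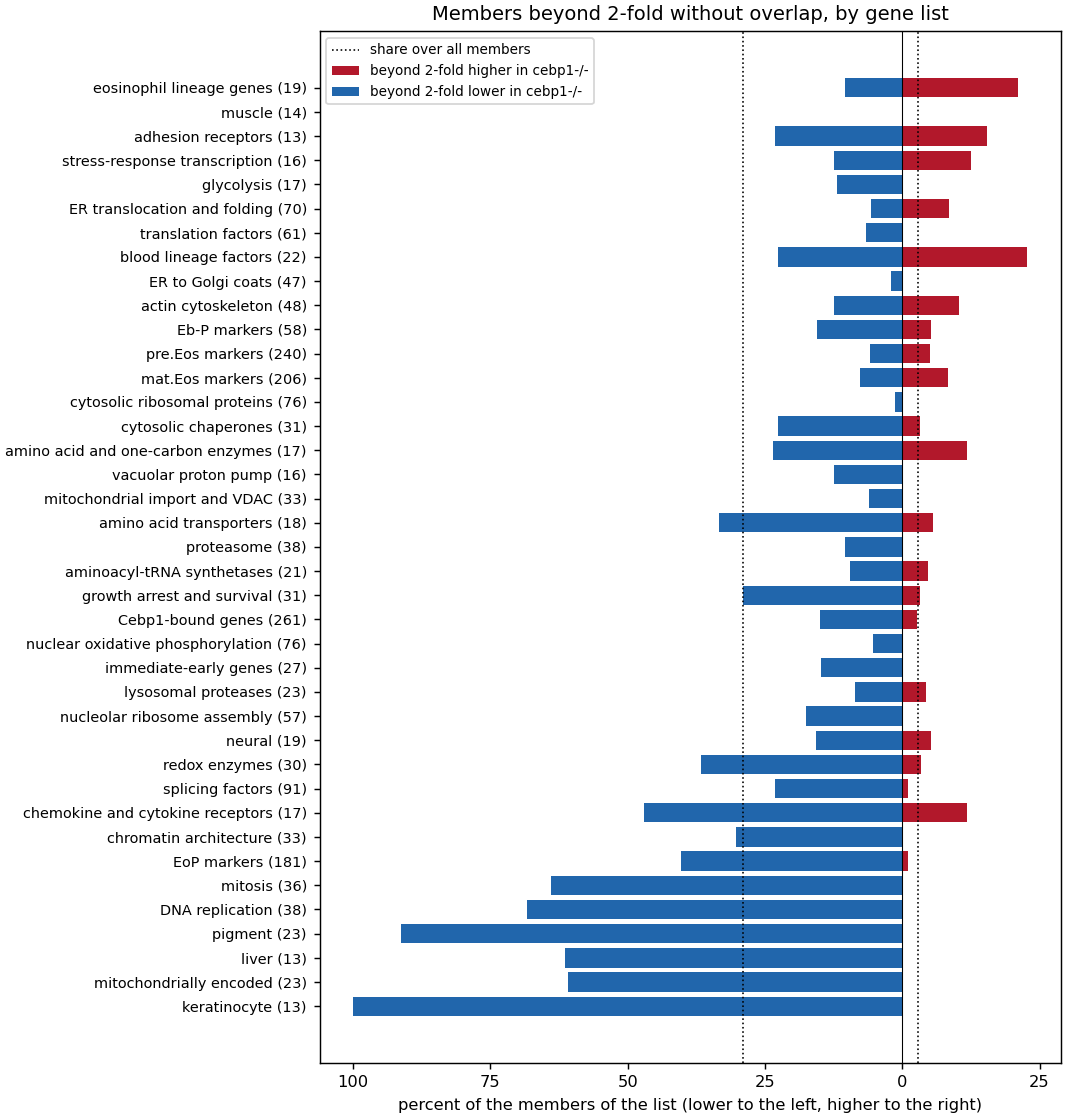
Percent of the members of each gene list that were beyond 2-fold lower (blue, to the left) or higher (red, to the right) in *cebp1*-/-, for 39 lists of at least 13 members other than microRNA genes, ordered by their median log2 difference. Dotted lines mark the shares over all members, 29.1% lower and 2.87% higher, and several lists lie beyond each line. Among them are the keratinocyte, pigment, DNA replication, mitosis, liver and mitochondrially encoded lists on the lower side. On the higher side are the eosinophil, blood lineage factor, adhesion receptor and stress-response lists, among others. The last 2 of these rest on 2 higher genes each, beside 3 and 2 lower ones, and in a small list 1 gene can pass the line.

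Stage markers, drawn from the study's single-cell clusters of the eosinophil lineage, differed in their counts, to be read beside the 29.1% of all members that were beyond 2-fold lower and the 2.87% higher. Those clusters were of cells from adult kidney, whereas the cells here were sorted from whole larvae. Of the 181 markers of EoP, the proliferating eosinophil progenitors, 1 rose and 2 fell, 2 were beyond 2-fold higher (1.1%) and 73 lower (40.3%, median -0.80 as deposited, 0.24 under the scaling on genes of at least 1 TPM). The list shares *hmgb2b* and *hmgn2* with the chromatin genes. *Hist1h4l*, a histone H4 gene of this list, had 5.53 and 10.5 TPM in *cebp1*-/-, against 53.4 and 54.3 TPM in *cebp1*+/+ (log2 difference -2.66, adjusted p = 0.0573 by limma). Of the 240 markers of pre.Eos, the immature stage, 2 rose and 1 fell, 12 were beyond 2-fold higher (5%) and 14 lower (5.83%, median 0.05), and of the 206 markers of mat.Eos, the mature stage, 2 rose and none fell, 17 were higher (8.25%) and 16 lower (7.77%, median 0.04). The 58 markers of Eb-P, the progenitors biased to the lineage, had 3 higher (5.17%) and 9 lower (15.5%, median 0.07). The lists differ in level, and the shares of lower and of higher genes moved with level. The median member had a mean of 34.1 TPM in EoP, 119 TPM in pre.Eos, 35.3 TPM in mat.Eos and 141 TPM in Eb-P. The lower share over all members was 19.4% between 20 and 50 TPM and 16.1% between 100 and 500 TPM. The higher share was 3.73% and 8.33% in these classes, so the higher shares of pre.Eos and Eb-P lay under that of their level. The Eb-P cluster was defined with mutant cells included. *Myca*, a gene of the Myc family that the study names for Eb-P, overlapped between genotypes at 19.8 and 16.5 TPM in the *cebp1*-/- pools, compared with 44.3 and 12.3 TPM in the *cebp1*+/+ pools.

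The study mapped Cebp1 peaks in whole larvae, younger than those used here, that made a Cebp1-eGFP fusion protein after heat shock. The peaks were thus not mapped in eosinophils or with the protein at its natural level. Of the 543 genes that the study lists with a Cebp1 peak, 261 were members. Of these 1 rose, *actb2*, and 1 fell, *hmgb2b*. Beyond 2-fold, 7 were higher (2.68%) and 39 lower (14.9%), against 2.87% and 29.1% of all members. Members between 20 and 50 TPM, where the median gene of the list lies (21.6 TPM), had 3.73% and 19.4%. The median was -0.37 as deposited and 0.65 under the scaling on genes of at least 1 TPM, against -0.54 and 0.46 over all members. *Otud1*, a deubiquitinase gene, had 2.76 and 3.28 TPM in *cebp1*-/-, against 29.7 and 23.8 TPM in *cebp1*+/+ (log2 difference -2.78, limma adjusted p = 0.0573), the smallest p of the list after those called. *Cebpb*, which is on this list, was described above.

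Around the limit of 10 TPM the values varied in both directions. Just inside it, *taf5* had 4.9 and 11.4 TPM in *cebp1*-/- eosinophils, against 14 and 9.68 TPM in *cebp1*+/+ eosinophils, and *ate1* had 8.13 and 5.31 TPM in the *cebp1*-/- pools, compared with 21.7 and 4.92 TPM in the *cebp1*+/+ pools. *Mad1l1*, also inside, had 5.07 and 7.04 TPM in *cebp1*-/-, against 10.5 and 17.5 TPM in *cebp1*+/+. Just outside, *smg8* had 14.8 and 13.4 TPM in *cebp1*-/- eosinophils, against 7.22 and 4.6 TPM in *cebp1*+/+ eosinophils, and *mutyh* had 7.12 and 2.82 TPM in the *cebp1*-/- pools, compared with 21.3 and 8.71 TPM in the *cebp1*+/+ pools. *Tmem135*, also outside, had 7.72 and 6.16 TPM in *cebp1*-/-, against 12.3 and 13.9 TPM in *cebp1*+/+. Of these 6 genes *ate1* and *taf5* overlapped between genotypes.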

How the data were processed

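Genes were measured by a modified Smart-seq2 protocol in 2 *cebp1*-/- and 2 *cebp1*+/+ libraries of about 500 sorted cells. Per the submitters' processing notes, reads were aligned to GRCz11 with STAR, counted per gene with featureCounts and tested with DESeq2. The authors deposited TPM for 30838 genes, in which each gene's reads are divided by its length. The annotation and its lengths are not given in the sources used here. The deposited read counts were not used here.

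Reads were recovered as the smallest whole numbers that give every gene a whole length in all libraries. A gene whose reads share a divisor may be given a fraction of its reads. Recovery held for 28566 of the 28569 genes above 0. These reads served as depth and for limma voom only, an alternative chosen after the data were seen. Intervals of counting are not given, since amplified reads are not independent molecules.

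The 25527 genes that averaged 1 TPM or more were tested with limma 3.58.1 in R 4.3.3 on log2(TPM + 1) with a mean-variance trend and genotype as the only term. The median residual SD was 0.389 among members, and the moderated test had 7.96 degrees of freedom. An exact permutation of 2 against 2 libraries cannot reach the threshold and was not run. TPM were also scaled by the median of ratios on genes that averaged at least 50 TPM (994 genes, factors 0.972 to 1.039) or at least 1 TPM (24016 genes, factors 0.658 to 1.636). The test was tried on simulated data first. Same-numbered replicates did not deviate together (r = -0.016 over 6977 genes). With 2 pools per genotype this cannot show whether same-numbered pools were prepared together.

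The members and the 56 gene lists were chosen with earlier results of these data known. Stage markers and Cebp1-bound genes come from the study's own supplementary tables. Named were genes the study names, the up to 15 called members with the largest difference in each direction, the 10 highest genes of each genotype, the up to 4 members of each program or stage list with the smallest p, the up to 3 highest of each other cell type list, the defining markers of the cell types and the 3 genes on either side of the limit of 10 TPM. A gene named by this rule is not reported here. Other genes named, as members of a count or as examples, were picked after their values were seen. All per-sample columns of the *cebp1* table were used. Marker *hbae1.1* has no row of that name. Sequences and coordinates were not used here. Gene types of unnamed genes come from RefSeq (GRCz12tu). Plots used matplotlib 3.10.9 (Python 3.11.15).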

Additional observations from a re-analysis of the deposited data

How the results depend on the processing

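The counts of called members depended on the processing. The 2-fold rule uses neither the filter of tested genes nor the trend, block or voom. Those settings could thus not move its counts of 200 higher and 2031 lower. Against 12 higher and 27 lower by limma on TPM as deposited, the scaling on genes of at least 1 TPM called 284 higher, TPM computed without mitochondrial and microRNA genes 39 higher and 104 lower, a filter at a mean of 5 TPM 85 higher and 400 lower, no filter on low values 0 higher and 4 lower, no mean-variance trend 0 higher and 6 lower, and a pseudocount of 5 0 in either direction, where 374 higher and 1964 lower members had an unadjusted p under 0.05. The voom test on recovered reads called 351 higher and 1007 lower, 29 of them among the 39. With the replicate numbers as a block, 205 rose and 1029 fell, the 39 among them. Whether the numbers pair the samples is not known, so this is given as a count only. Restricted to members of at least 50 TPM the lower count was 11, and without microRNA and mitochondrial genes it was 14. With 1 library left out, between 0 and 0 members were called in each direction, by a fit in which the lone library of a genotype is assumed to vary like the pair of the other. The count beyond 2-fold then ranged from 214 to 392 higher and from 1976 to 2524 lower. Under the scaling on genes of at least 1 TPM it was 1843 higher and 423 lower, and among members of at least 50 TPM it was 79 and 127. Of the 229 named genes, 30 of them called, none changed sign with a call on either side under 14 alternatives, and each of the 30 calls was lost when a library was left out. The *cebp1*+/+ libraries held 1907131 and 2333077 reads, so members near 10 TPM rest on about 46 to 78 reads (medians), and most microRNA genes on at most 10.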
